A study of Caenorhabditis elegans with 18 samples.

Results

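The cytochrome P450 genes of Caenorhabditis elegans were taken as every row of the deposited gene table whose WormBase name starts with cyp-. There were 74 such genes among 46904 in the table, in 25 subfamilies named by number and letter, and 69 had enough reads to be tested. The larvae were at the first stage (L1), where hatching without food arrests growth. Each of 3 genotypes, namely wild-type N2, raga-1(ok386) and rsks-1(ok1255), was sampled starved and fed. For both, eggs had been kept for 24 h in M9 buffer, and fed larvae then had 4 h on plates of Escherichia coli OP50. No unfed larvae on plates were among the groups, so food cannot be told apart from the added time and the transfer. Each of the 6 groups had 3 libraries of whole-body RNA, and both mutants were listed on the N2 line. All worms were listed as grown at 20 C and had been passaged on OP50 before the assay. raga-1 encodes a Rag GTPase that passes amino acid signals to TORC1, and rsks-1 encodes the S6 kinase, a substrate of TORC1. The genes were followed here as metabolic responders to food.

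Cytochrome P450 enzymes hold a heme group and put an oxygen atom from molecular oxygen into lipids, steroids, drugs and other small molecules. Microsomal members take their electrons from NADPH through P450 reductase, encoded in the worm by emb-8, with cytochrome b5 as a further donor. C. elegans makes no heme of its own and takes it up from food. Many of its P450 genes act in the intestine, where food and foreign compounds are handled, and several subfamilies sit side by side in the genome as tandem copies.

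Library totals ran from 9929323 to 18539402 counts, and levels are given as CPM, read counts per fixed library size, on library sizes scaled by TMM, each as mean ± SD over 3 libraries. A gene was called higher or lower at a Benjamini-Hochberg adjusted p below 0.05 over all genes tested, by edgeR's quasi-likelihood test, and differences are on the log2 scale. The labels did not say whether libraries of a group came from separate cultures, so these p-values measure the spread between libraries, which may be technical. The raga-1 gene had 0 counts in all 6 raga-1 libraries, and rsks-1 stood at 37.6 ± 3.69 CPM in starved and 24.8 ± 2.65 CPM in fed rsks-1 larvae against 186 ± 9.39 CPM and 171 ± 9.24 CPM in N2. Markers of intestine, the tissue of many P450 genes, summed to 6536 to 6648 CPM in starved N2, 9109 to 9204 in fed N2, 8251 to 8533 in starved raga-1, 8542 to 8797 in fed raga-1, 7179 to 7382 in starved rsks-1 and 6749 to 6863 in fed rsks-1. Sperm markers did not exceed 0.206 CPM in sum in any library, and yolk and early embryo genes did not exceed 7.20 CPM. Oocyte and eggshell markers summed to 8.51 to 17.3 CPM per library, with the highest sum in fed N2. In these whole-body libraries, fewer cells of a type and less RNA per cell cannot be told apart.

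Many of the 74 genes were neighbours. Chromosome V carried 41 of them, II carried 12, IV and X carried 7 each, III carried 6 and I carried 1, in the WBcel235 annotation. In all, 38 members lay next to at least 1 other member, in 11 runs. The longest run held 7 cyp-13A genes on chromosome II, and the next held cyp-34A5 to cyp-34A10 on chromosome V. The cyp-35A genes were spread over several places on V, with cyp-35A1 beside cyp-35A2, and cyp-35A5 beside cyp-35B1, cyp-35B2 and cyp-35B3. Exons of 24 members overlap those of another gene in that annotation, so reads of the pair may not be told apart. Among the genes described here these include cyp-37B1, cyp-37A1, cyp-36A1, cyp-14A2, cyp-35B1 and every cyp-34A gene except cyp-34A10, each with a gene on the opposite strand. Further such genes are cyp-43A1, cyp-13A6, cyp-25A4, cyp-33C11, cyp-33C12, cyp-33D1 and cyp-23A1. The exons of cyp-44A1 overlap those of npp-24 on the same strand. None of the 5 cyp-35A genes, cyp-35C1, cyp-35D1, cyp-32B1, cyp-13A5 or cyp-13B1 has such an overlap.

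Summed over all 74 genes, P450 transcripts made up 678 ± 6.52 CPM in N2 before food and 647 ± 20.6 CPM after it. Starved raga-1 larvae had 1713 ± 4.97 CPM, the highest of the 6 groups, and fed raga-1 larvae had 763 ± 15.2 CPM. In rsks-1 the sums were 811 ± 7.69 CPM starved and 679 ± 5.997 CPM fed. The leading members changed while these N2 sums lay close together on this scaling. That closeness depends on the TMM factors, 1.04 to 1.06 in starved and 0.85 to 0.86 in fed N2. Library totals alone would put the starved N2 sums higher and the fed ones lower. Per kilobase of coding length, the most abundant P450 transcript of starved N2 was cyp-37B1, at 29.1 CPM per kb, and that of fed N2 was cyp-35C1, at 104.1 CPM per kb and 23.9% of the summed CPM. In starved raga-1 it was cyp-34A9, at 168 CPM per kb and 15.2% of the sum, followed by cyp-35A3 at 150.4 and cyp-35A2 at 122 CPM per kb. In fed raga-1 it was cyp-35A2, at 71.1 CPM per kb. Starved rsks-1 had cyp-37B1 first, at 37.7 CPM per kb, and fed rsks-1 had cyp-35C1 first, at 94.5 CPM per kb.

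**Figure D1:**
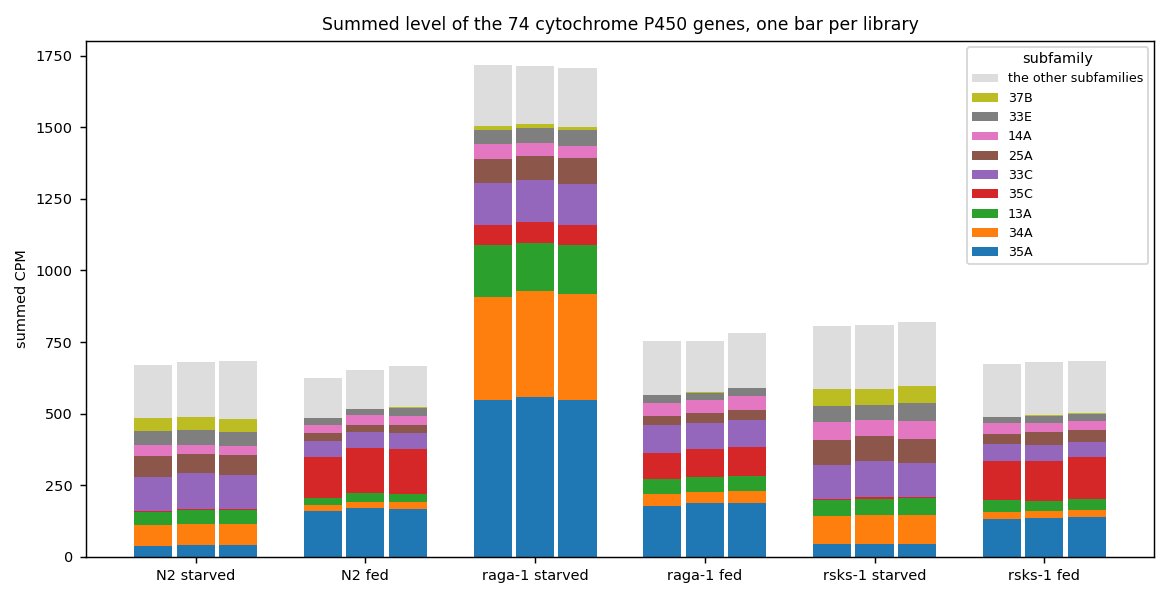
Summed CPM of cytochrome P450 genes in each of the 6 groups, split by subfamily (stacked bars from 0, 1 bar per library). The starved raga-1 libraries average 1713 CPM, and the other 5 groups average 647 to 811 CPM.

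Feeding of N2 for 4 h raised a small set of P450 genes, mostly of family 35, and lowered most of the others. Of 69 tested members, 11 rose, 38 fell and 20 were not called. Over the genome, 36.5% of the 14073 genes tested were called higher and 37.4% lower. The 8 intestine markers gave 4 higher and 3 lower on feeding of N2. All 8 neuron markers were lower, their sum going from 3067 to 3128 to 1720.0 to 1749.8 CPM, and all 4 pharynx markers were lower, from 3114 to 3224 to 1821 to 1923 CPM. Body wall muscle gave 2 higher and 3 lower of 6 and hypodermis 3 higher and 0 lower of 4 tested. No marker of these tissues was at 0 over a whole group, although some hypodermis markers were at 0 in single libraries. The part of these tissues in the P450 changes was not tested. The median log2 change of the members was -0.94, against -0.069 for all genes tested. With library totals alone in place of TMM factors, those medians were -1.24 and -0.37, and the share of all calls that were higher was 35.6% against 49.4%.

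The genes that rose most, cyp-35D1, cyp-35A1, cyp-35A5 and cyp-35C1, started from low levels in starved N2. cyp-35D1, whose product hydroxylates the anthelmintic thiabendazole, had 0.183, 0.155 and 0 CPM starved and 24.5, 27.1 and 28.03 CPM fed (log2 difference 7.83, SE 0.27, edgeR adjusted p = 2.36e-56). cyp-35A1, a gene inducible by foreign compounds, had 1 count in the 3 starved N2 libraries together and 6.93, 8.11 and 6.83 CPM fed, a ratio of 273 (95% interval 48.4 to 10840.3). That interval covers counting error only. Every fed library was far above every starved one for both genes.

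cyp-35A5 had 0.0916, 0.309 and 0.514 CPM starved and 28.4, 27.2 and 27.7 CPM fed (log2 difference 6.40, SE 0.21, edgeR adjusted p = 2.2e-58). cyp-35C1, also known as inducible by foreign compounds, had 4.22, 3.40 and 3.89 CPM starved and 145, 159 and 159.8 CPM fed (log2 difference 5.33, SE 0.082, edgeR adjusted p = 3.24e-95). The starved and fed libraries did not overlap for either gene. The other 3 cyp-35A genes also rose. cyp-35A2 went from 32.3, 36.8 and 37.2 CPM to 102, 108 and 108 CPM (log2 difference 1.58, SE 0.056, edgeR adjusted p = 8.96e-55). cyp-35A3 went from 2.71 ± 0.148 CPM to 19.03 ± 0.373 CPM (log2 difference 2.80, SE 0.13, edgeR adjusted p = 4.55e-42), and cyp-35A4 from 1.05 ± 0.237 CPM to 5.59 ± 1.80 CPM (log2 difference 2.41, SE 0.24, edgeR adjusted p = 1.51e-17). All 5 cyp-35A genes were thus called higher, with a median log2 change of 2.80, and their summed level went from 39.5 ± 3.01 to 166 ± 4.81 CPM. Genes of subfamily 35A have been linked to fat storage in the worm.

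Outside family 35, feeding of N2 raised 4 members. cyp-36A1, which acts downstream of the oxygen sensor EGL-9, went from 3.87 ± 0.366 CPM to 11.6 ± 1.57 CPM (log2 difference 1.59, SE 0.16, edgeR adjusted p = 5.28e-17). cyp-29A3, an eicosanoid-producing enzyme, went from 1.31 ± 0.357 CPM to 3.89 ± 1.11 CPM (log2 difference 1.53, SE 0.28, edgeR adjusted p = 7.09e-07). cyp-13A2 rose by 0.73 and cyp-44A1, of the mitochondrial P450 type, by 0.49 on the log2 scale. With library totals alone, cyp-44A1 was no longer called (0.19, edgeR adjusted p = 0.186). The family was not uniform either: cyp-35B1, a gene downstream of the insulin-regulated factor DAF-16, fell from 0.779 ± 0.291 CPM to 0.190 ± 0.0734 CPM (log2 difference -2.04, SE 0.67, edgeR adjusted p = 0.00438), and cyp-35B2 was not called (0.49, SE 0.52, edgeR adjusted p = 0.398).

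The largest fall was that of cyp-37B1, the leading P450 transcript of starved N2. It had 45.7, 45.1 and 42.7 CPM starved and 0, 0.114 and 0.118 CPM fed, with 2 counts in the 3 fed libraries together, a ratio of 594 (95% interval 164 to 4910.0) starved over fed. cyp-32B1 had 37.5, 34.8 and 40.2 CPM starved and 0.945, 0.114 and 1.18 CPM fed (log2 difference -5.63, SE 0.19, edgeR adjusted p = 6.18e-57). Both were thus abundant in every starved N2 library and scarce in every fed one. cyp-37A1 also fell, from 40.4 ± 3.14 CPM to 14.8 ± 1.36 CPM (log2 difference -1.45, SE 0.11, edgeR adjusted p = 1.26e-21), and cyp-32A1 from 20.6 ± 2.86 CPM to 3.58 ± 0.181 CPM (log2 difference -2.52, SE 0.15, edgeR adjusted p = 2.06e-31).

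Most tested members of subfamilies 34A, 13A, 33C and 25A fell on feeding in N2. In subfamily 34A, 7 of 8 members fell, with a median log2 change of -2.17. cyp-34A9, another gene downstream of DAF-16, had 31.98, 31.5 and 32.7 CPM starved and 9.03, 12.6 and 11.1 CPM fed (log2 difference -1.56, SE 0.088, edgeR adjusted p = 5.11e-35). cyp-34A8 fell from 22.3 ± 1.22 CPM to 7.22 ± 2.16 CPM, and cyp-34A10 from 4.24 ± 1.69 CPM to 0.491 ± 0.465 CPM. Their log2 changes were -1.63 and -3.07. cyp-34A1, cyp-34A2 and cyp-34A5 had log2 changes of -2.26, -2.08 and -2.69, and cyp-34A7 had 105 counts starved against 1 fed, a ratio of 75.0 (95% interval 13.2 to 2989). cyp-34A6, which lies inside the run of falling neighbours, was not called (-0.032, SE 0.34, edgeR adjusted p = 0.941).

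In subfamily 13A, 9 of 11 members fell and cyp-13A2 rose, with a median log2 change of -2.36. cyp-13A8 had 0 counts in fed N2, at least 5.71-fold lower than starved N2 when 3 counts are taken as the group's floor, and the median is the same with that gene at its bound. cyp-13A5 went from 14.8 ± 1.37 CPM to 1.88 ± 0.224 CPM (log2 difference -2.98, SE 0.18, edgeR adjusted p = 7.73e-33). cyp-13A12, known from the eicosanoid response to reoxygenation after hypoxia, went from 3.21 ± 0.414 CPM to 1.97 ± 0.801 CPM (log2 difference -0.71, SE 0.26, edgeR adjusted p = 0.0108). Without fed N2 replicate 1 that change was -0.38, edgeR adjusted p = 0.217. In subfamily 33C, 8 of 11 fell and none rose (median -1.47), led by cyp-33C3, cyp-33C4 and cyp-33C7 at -2.15, -2.04 and -2.01. In subfamily 25A all 4 tested members fell, cyp-25A4 not without fed N2 replicate 2 (-0.32), and cyp-25A3 by 3.44 on the log2 scale, from 20.9 ± 1.90 CPM to 1.90 ± 0.146 CPM. The deposited counts of cyp-25A1 to cyp-25A4 were not whole in at least 9 of the 18 libraries, so reads were shared out by estimate and their values are less certain. cyp-13B1, the tested member of its subfamily, was not called in N2 (-0.32, SE 0.16, edgeR adjusted p = 0.0581), although it was called with relative log expression factors (-0.33), with library totals alone (-0.62) and without starved N2 replicate 3 (-0.38).

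**Figure D2:**
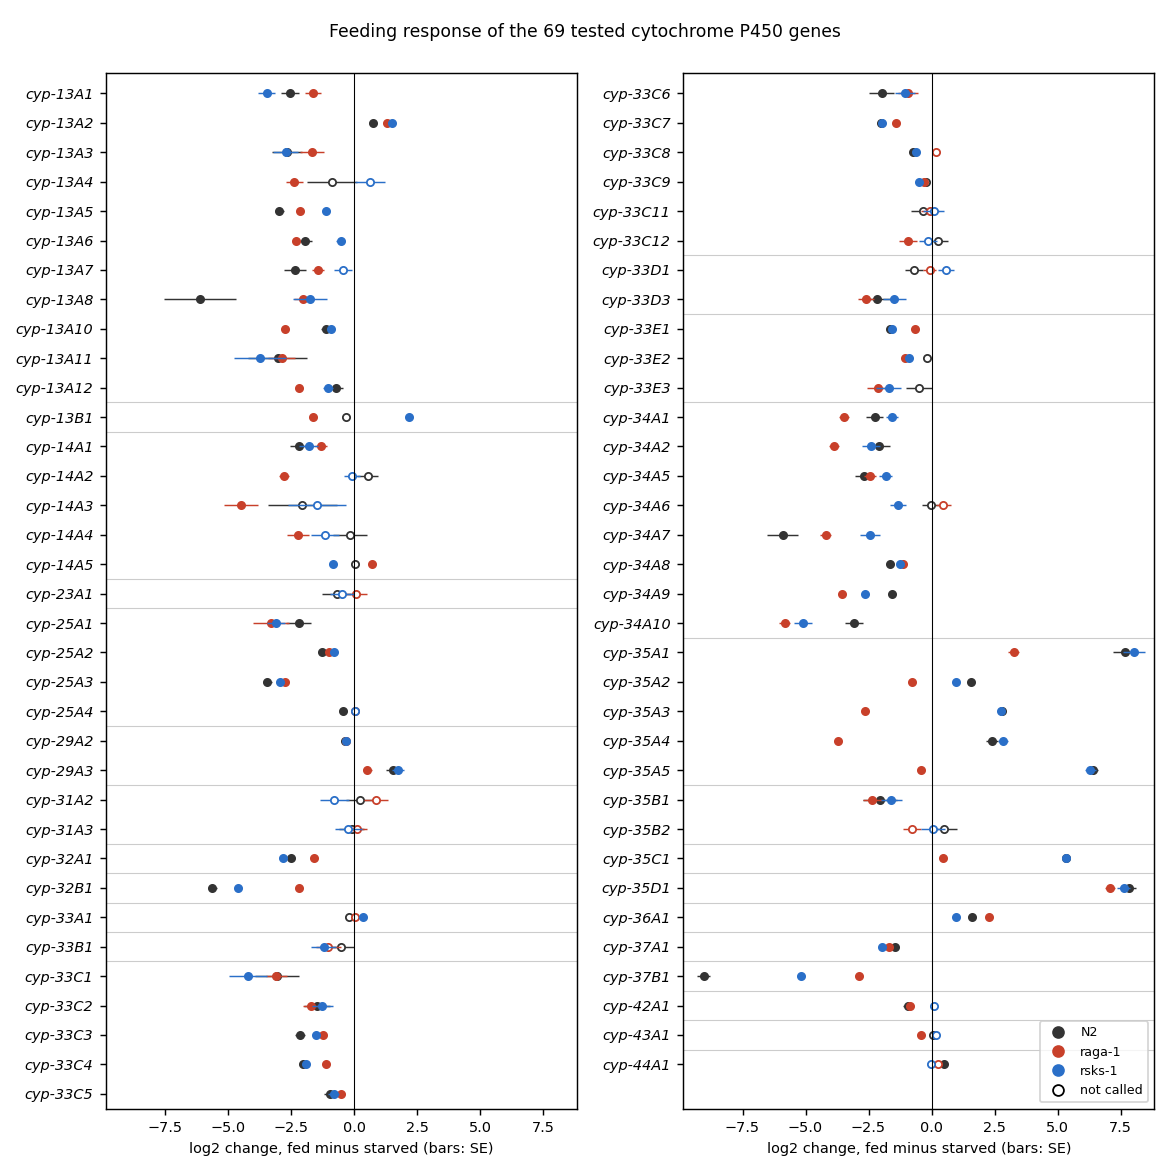
Log2 change on feeding (fed against starved) of each of the 69 tested P450 genes in N2, raga-1 and rsks-1 larvae, ordered by subfamily. Points are fitted values with SE bars, open where not called. In N2, sizes for cyp-37B1, cyp-35A1, cyp-34A7, cyp-13A8, cyp-13A11, cyp-33C1, cyp-14A3 and cyp-13A4 rest on a group with 0 to 3 counts. So do the sizes for cyp-25A1 and cyp-14A3 in raga-1, and for cyp-35A1, cyp-13A11, cyp-33C1 and cyp-14A3 in rsks-1. In N2 and rsks-1 the cyp-35A points lie above 0, whereas in raga-1 cyp-35A1 alone of the 5 does.

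In raga-1 larvae, feeding lowered most of the members. Of 69 members, 7 rose, 50 fell and 12 were not called. Over the genome, 29.4% of the 14073 genes tested were called higher and 32.9% lower. The median log2 change was -1.32 for the members and -0.053 for all genes. All 8 neuron and all 4 pharynx markers were lower on feeding of raga-1, and muscle gave 2 higher and 4 lower of 6. Intestine gave 3 higher and 4 lower of 8 and hypodermis 0 higher and 1 lower of 4 tested. For these and the marker counts given with later comparisons, their part in the P450 values was not tested. The members that rose were cyp-35D1, cyp-35A1, cyp-36A1, cyp-13A2, cyp-14A5, cyp-29A3 and cyp-35C1. Without fed raga-1 replicate 1, cyp-29A3 was not called (0.39, edgeR adjusted p = 0.106).

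Several family 35 genes were high in starved raga-1 larvae and fell on feeding. cyp-35A3 had 220.2, 227 and 221 CPM in starved raga-1 and 35.5 ± 3.01 CPM in fed raga-1 (log2 difference -2.65, SE 0.055, edgeR adjusted p = 2.38e-79). cyp-35A4 had 112, 119.3 and 111 CPM starved and 8.63, 9.09 and 8.17 CPM fed (log2 difference -3.72, SE 0.087, edgeR adjusted p = 2.28e-73). For both genes each starved raga-1 library lay above each fed one, the reverse of N2. cyp-35A2 went from 180.5 ± 2.63 CPM to 105 ± 4.23 CPM (log2 difference -0.78, SE 0.044, edgeR adjusted p = 2.07e-34), and cyp-35A5 from 32.6 ± 1.01 CPM to 24.3 ± 0.170 CPM (log2 difference -0.43, SE 0.086, edgeR adjusted p = 6.29e-06). cyp-35A1 rose, from 1.12 ± 0.262 CPM to 10.6 ± 0.708 CPM (log2 difference 3.26, SE 0.21, edgeR adjusted p = 1.38e-29). cyp-35C1 rose less than in N2, from 72.5, 72.6 and 70.0 CPM to 93.5, 96.8 and 101 CPM (log2 difference 0.44, SE 0.050, edgeR adjusted p = 5.18e-14). cyp-35D1 was low in starved raga-1 and high after food, as in N2, at 0.245 ± 0.186 CPM and 33.0 ± 1.08 CPM (log2 difference 7.09, SE 0.20, edgeR adjusted p = 2.69e-64).

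The difference between the raga-1 and the N2 feeding response was tested as an interaction. Of 69 members, 16 had a more positive response in raga-1 and 19 a more negative one. Over the genome, 21.8% of the 14073 genes tested were called higher and 28.8% lower. All 5 cyp-35A genes had a more negative response, with differences of -6.83 for cyp-35A5, -6.13 for cyp-35A4, -5.45 for cyp-35A3 and -2.35 for cyp-35A2 (edgeR adjusted p = 9.84e-55, 3.35e-47, 5.11e-69 and 3.42e-61). cyp-35A1 was also called (-4.40), although its size depends on a starved N2 group with 1 count. The difference was -4.90 for cyp-35C1 (SE 0.10, edgeR adjusted p = 1.34e-78). cyp-35D1 was not called (-0.75, SE 0.75, edgeR adjusted p = 0.429).

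In the other direction, the falls of cyp-37B1 and cyp-32B1 were smaller in raga-1. cyp-37B1 had 10.8, 12.3 and 10.3 CPM starved and 1.82, 1.35 and 1.35 CPM fed in raga-1 (log2 difference -2.88, SE 0.16, edgeR adjusted p = 1.02e-34). Its difference in response was 6.17 (SE 0.52, edgeR adjusted p = 5.04e-21), a size that depends on the 2 counts of fed N2. cyp-32B1 went from 20.7 ± 1.71 CPM to 4.46 ± 0.515 CPM in raga-1, with a difference in response of 3.43 (SE 0.29, edgeR adjusted p = 5.52e-21). Smaller positive differences were called for cyp-33E1 (1.01), cyp-33C3 (0.92), cyp-33C4 (0.92), cyp-32A1 (0.92), cyp-33C8 (0.88) and cyp-13A5 (0.83).

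Subfamily 34A fell more steeply in raga-1 for some members. cyp-34A9 had 256, 262 and 264 CPM starved and 22.7, 21.7 and 22.3 CPM fed (log2 difference -3.55, SE 0.056, edgeR adjusted p = 1.91e-93), and its difference in response was -1.99 (edgeR adjusted p = 1.09e-32). cyp-34A10 fell by 5.82 on the log2 scale in raga-1. Its difference of -2.75 was lost without fed N2 replicate 2 (-1.66, edgeR adjusted p = 0.152). The differences of cyp-34A1 (-1.22), cyp-34A2 (-1.79) and cyp-34A8 (0.51) were also lost when 1 fed N2 library was left out. For cyp-34A1, also lost with library totals alone (-1.02), this was replicate 1 (-1.23) or replicate 2 (-1.17), for cyp-34A2 replicate 3 (-1.45) and for cyp-34A8 replicate 2 (0.30). cyp-14A2 went from 13.9 ± 1.71 CPM to 2.00 ± 0.803 CPM in raga-1 and was not called in N2, with a difference in response of -3.31 (edgeR adjusted p = 2.9e-09). cyp-13B1 fell in raga-1 from 20.8 ± 1.02 CPM to 6.65 ± 0.858 CPM (log2 difference -1.65, SE 0.11, edgeR adjusted p = 3.44e-27), with a difference in response of -1.33.

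**Figure D3:**
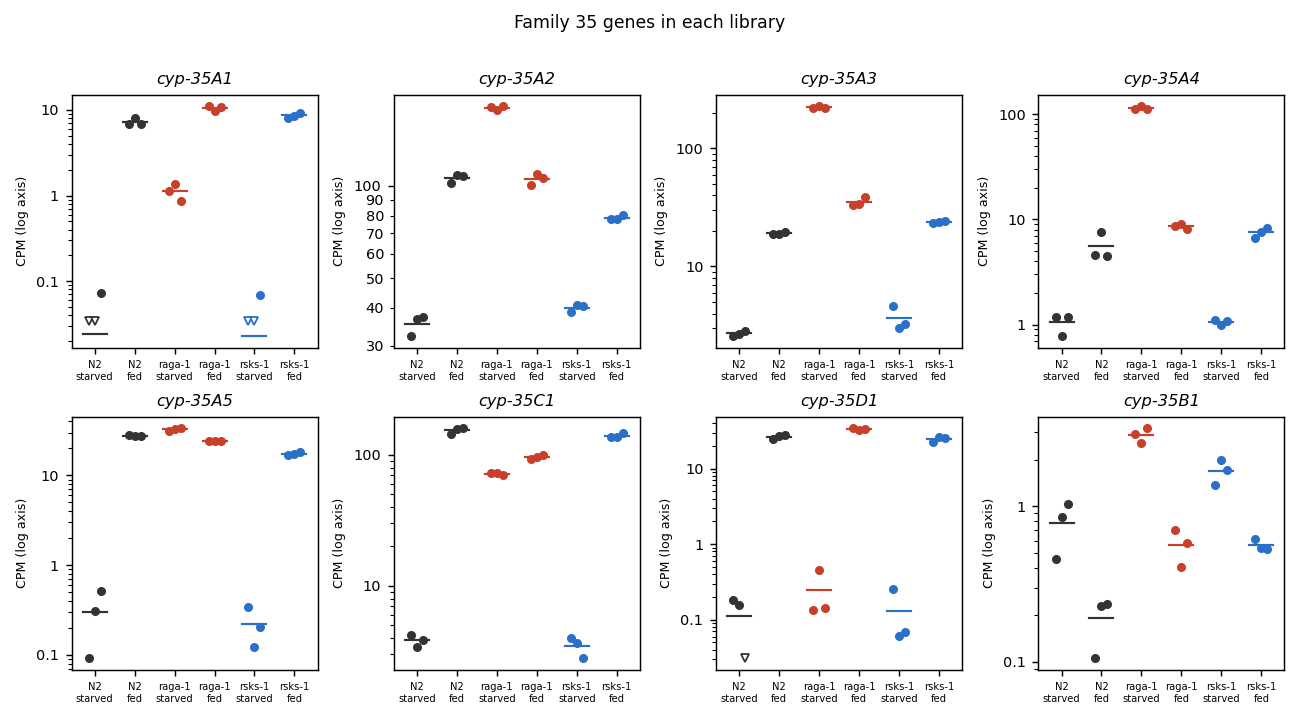
CPM of family 35 genes in each library (points; log axis) for the 6 groups, with the group mean as a bar and open triangles for libraries at 0. cyp-35A3 and cyp-35A4 are highest in the 3 starved raga-1 libraries, and cyp-35D1 is low in all 9 starved libraries and high in all 9 fed ones.

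Feeding of rsks-1 larvae gave 12 members higher, 41 lower and 16 not called. Over the genome, 35.7% of the 14073 genes tested were called higher and 35.2% lower. The member median was -0.93 and that of all genes -0.025. On feeding of rsks-1, neuron markers gave 0 higher and 6 lower of 8. Pharynx gave 0 higher and 4 lower of 4 and muscle 1 higher and 5 lower of 6. Intestine gave 4 higher and 4 lower of 8 and hypodermis 3 higher and 0 lower of 4 tested. All 5 cyp-35A genes rose, with a median log2 change of 2.84. cyp-35A5 had 0.343, 0.123 and 0.204 CPM starved and 16.8, 17.2 and 18.3 CPM fed (log2 difference 6.30, SE 0.23, edgeR adjusted p = 5.27e-53), and cyp-35A1 had 1 count starved and 8.14, 8.58 and 9.16 CPM fed, a ratio of 369 (95% interval 65.8 to 14619). cyp-35C1 rose by 5.34 and cyp-35D1 by 7.62. In subfamily 34A all 8 members fell, with a median of -2.11. cyp-37B1 fell from 57.6 ± 0.636 CPM to 1.53 ± 0.334 CPM (log2 difference -5.19, SE 0.13, edgeR adjusted p = 2.08e-69).

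cyp-13B1 rose on feeding of rsks-1 larvae, where no such rise was called in N2. It had 10.9, 8.20 and 8.86 CPM in starved rsks-1 and 38.8, 43.6 and 41.4 CPM in fed rsks-1 (log2 difference 2.17, SE 0.10, edgeR adjusted p = 6.62e-41). The fed rsks-1 libraries were above all 15 other libraries, and the difference from the N2 response was 2.48 (SE 0.19, edgeR adjusted p = 1.41e-23). Over all 69 members, 14 had a more positive and 9 a more negative response in rsks-1 than in N2. Over the genome, 10.8% of the 14073 genes tested were called higher and 15.8% lower. cyp-13A5 fell less in rsks-1 (difference 1.86, edgeR adjusted p = 1.12e-11), as did cyp-13A6 (1.40). cyp-42A1, which fell in N2, was not called on feeding of rsks-1, and its difference was 1.03. Of the cyp-35A genes, cyp-35A2 was called different, rising less (-0.60, edgeR adjusted p = 8.61e-11). cyp-34A9 fell more (-1.08, edgeR adjusted p = 4.67e-12). The difference of cyp-34A10 (-2.04) was lost without fed N2 replicate 2 (-0.95, edgeR adjusted p = 0.552), starved N2 replicate 3 (-1.83) or fed rsks-1 replicate 2 (-1.61). That of cyp-32B1 (1.02) was lost without fed N2 replicate 2 (0.53, edgeR adjusted p = 0.333) or fed rsks-1 replicate 2 (0.94).

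Across the genotypes, 34 members fell on feeding in all 3 and 6 rose in all 3, namely cyp-13A2, cyp-29A3, cyp-35A1, cyp-35C1, cyp-35D1 and cyp-36A1. Over the 14073 genes tested, 22.3% fell in all 3 and 24.2% rose in all 3. cyp-35A2 to cyp-35A5 rose in N2 and rsks-1 and fell in raga-1, a pattern found for 1.55% of all genes tested. cyp-14A5 was not called in N2, rose in raga-1 (0.70) and fell in rsks-1 (-0.83), and cyp-13B1 was not called in N2, fell in raga-1 and rose in rsks-1. Both were called lower in N2 with library totals alone (-0.25 and -0.62).

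Before any food, starved raga-1 larvae already carried more P450 transcripts than starved N2. Of 69 members, 40 were higher, 11 lower and 18 not called, and the count lower was 7 with library totals alone. Over the genome, 27.0% of the 14073 genes tested were called higher and 25.7% lower. The member median was 0.82, against -0.010 for all genes. All 5 cyp-35A genes were higher, with a median of 6.35. cyp-35A4 had 1.19, 0.773 and 1.17 CPM in starved N2 and 114.03 ± 4.59 CPM in starved raga-1 (log2 difference 6.76, SE 0.13, edgeR adjusted p = 2.74e-83). cyp-35A5 stood at 0.305 ± 0.211 CPM against 32.6 ± 1.01 CPM (log2 difference 6.63, SE 0.19, edgeR adjusted p = 7.96e-63), and cyp-35A3 at 2.71 ± 0.148 CPM against 223 ± 3.90 CPM (log2 difference 6.35, SE 0.086, edgeR adjusted p = 7.47e-101). cyp-35A2 was 2.34 higher, and cyp-35A1 had 56 counts in starved raga-1 against 1 in starved N2. cyp-35C1 was 4.23 higher, at 71.7 ± 1.46 CPM. cyp-35D1 was not called (1.07, SE 0.75, edgeR adjusted p = 0.236). The 8 intestine markers gave 4 higher and 3 lower in starved raga-1, with sums, given above, higher than in starved N2. Body wall muscle markers gave 5 higher and 0 lower of 6, summing to 12939.6 to 13785 CPM against 9274 to 9449 CPM, neurons 4 higher and 2 lower of 8 and pharynx 1 higher and 3 lower of 4. Hypodermis markers gave 1 higher and 1 lower of 4 tested. None of these markers was at 0 over a whole group, although some hypodermis markers were at 0 in a starved N2 library. The part of these tissues in the P450 differences was not tested.

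Most tested members of 34A, 13A and 14A were higher in starved raga-1 as well. In 34A, 6 of 8 members were higher and none lower (median 2.22). The summed 34A level was 366 ± 3.97 CPM against 72.8 ± 1.53 CPM in starved N2. cyp-34A9 had 256, 262 and 264 CPM against 31.98, 31.5 and 32.7 CPM (log2 difference 3.02, SE 0.054, edgeR adjusted p = 5.7e-87), and cyp-34A2 was 3.19 higher. Neither cyp-34A6 (-0.26) nor cyp-34A8 (0.034) was called. In 13A, 8 of 11 were higher and 2 lower (median 2.11), with cyp-13A12 at 2.77 and cyp-13A5 at 2.26. In 14A, 4 of 5 were higher, cyp-14A2 by 4.14, and cyp-14A5 was lower (-0.27) but not called with library totals alone (-0.15, edgeR adjusted p = 0.096).

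The genes lower in starved raga-1 included the leading P450 transcripts of starved N2. cyp-37B1 had 11.1 ± 1.02 CPM against 44.5 ± 1.59 CPM in N2 (log2 difference -2.004, SE 0.092, edgeR adjusted p = 1.42e-42). cyp-32B1 had 20.7 ± 1.71 CPM against 37.5 ± 2.71 CPM (log2 difference -0.86, SE 0.090, edgeR adjusted p = 1.59e-15). cyp-37A1, cyp-33E1, cyp-13A2 and cyp-43A1 were lower by smaller amounts, at -0.46, -0.65, -0.50 and -0.45. The calls of cyp-42A1 (-0.39) and cyp-33C9 (-0.29) were lost with library totals alone (-0.27 and -0.17) and without starved raga-1 replicate 1 (-0.31 and -0.24), and that of cyp-42A1 also without starved N2 replicate 2 (-0.33).

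**Figure D4:**
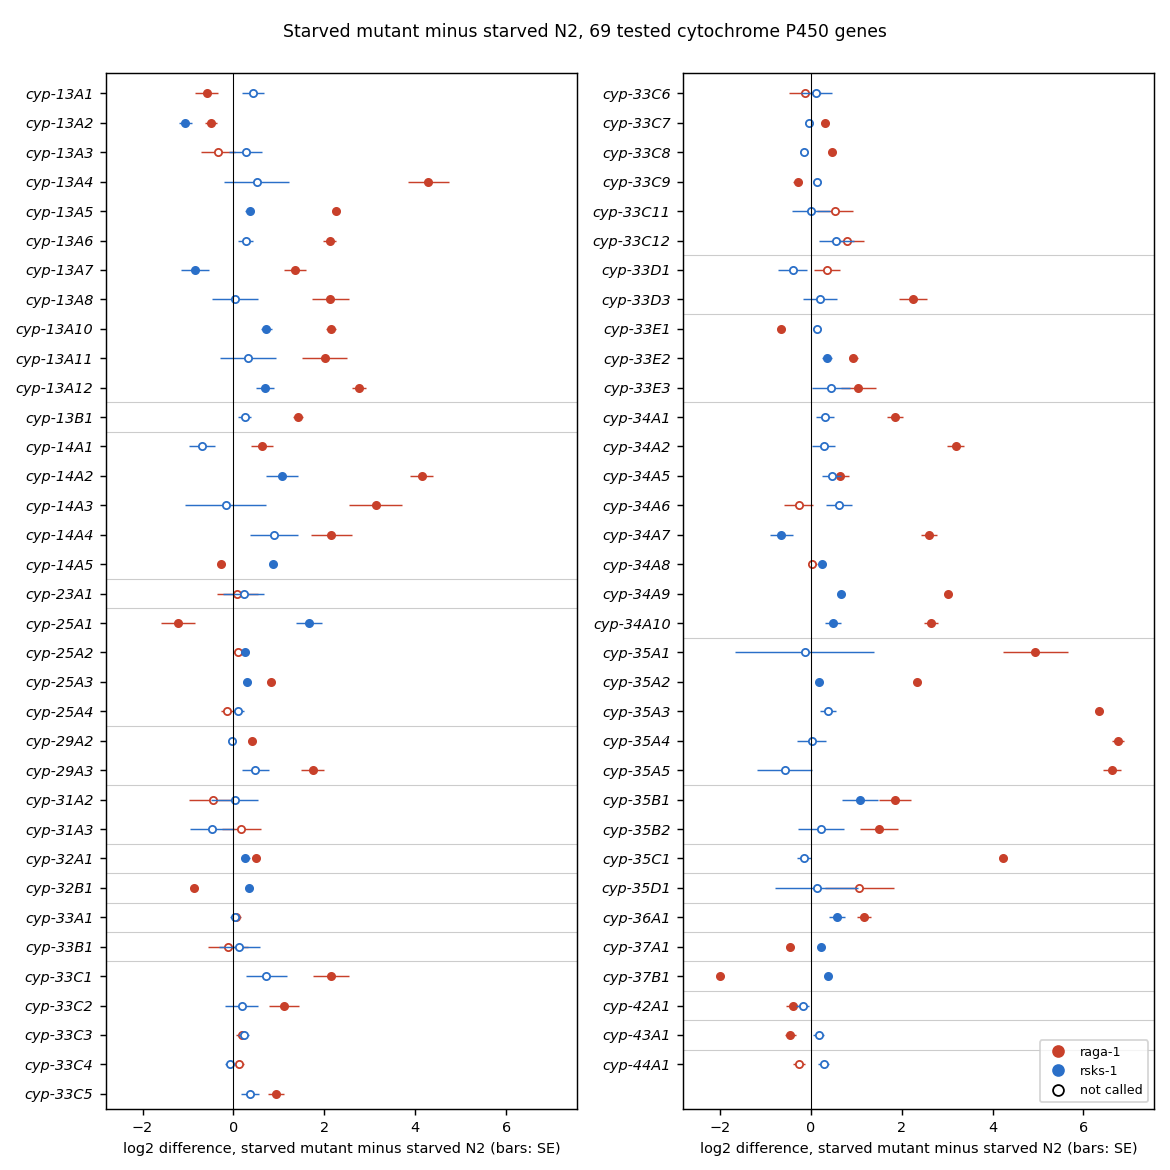
Log2 difference from N2 of each of the 69 tested P450 genes in starved larvae, for raga-1 and rsks-1, ordered by subfamily, with SE bars and open points where not called. The raga-1 points of cyp-35A3, cyp-35A4 and cyp-35A5 lie above 6.

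Fed raga-1 larvae were compared with fed N2 in the same way. In them, 37 of 69 members were higher and 6 lower, and 48 were higher and 4 lower with library totals alone. Over the genome, 28.9% of the 14073 genes tested were called higher and 34.4% lower. Neuron markers gave 7 higher and 0 lower of 8 in fed raga-1. Pharynx gave 4 higher and 0 lower of 4 and muscle 5 higher and 0 lower of 6. Intestine gave 2 higher and 4 lower of 8 and hypodermis 0 higher and 2 lower of 4 tested. cyp-13A5 was higher, with 16.02 ± 1.37 CPM against 1.88 ± 0.224 CPM (log2 difference 3.09, SE 0.17, edgeR adjusted p = 6.6e-35), as were cyp-32B1 (2.57) and cyp-36A1, the latter with 41.9 ± 5.09 CPM against 11.6 ± 1.57 CPM (log2 difference 1.84, SE 0.11, edgeR adjusted p = 6.07e-32). cyp-37B1 had 67 counts in fed raga-1 against 2 in fed N2, a ratio of 20.1 (95% interval 5.34 to 169), and cyp-34A7 had 41 counts against 1, a ratio of 24.6 (95% interval 4.17 to 994). Among the cyp-35A genes, cyp-35A3 (0.90), cyp-35A4 (0.63) and cyp-35A1 (0.54) were higher, and cyp-35A2 (-0.008) and cyp-35A5 (-0.19) were not called. With library totals alone, the median of all genes in this comparison moved from 0.01 to 0.33, cyp-35A4 was 0.95, cyp-35A1 was 0.86 and cyp-35A2 was called higher (0.31). cyp-35C1 was lower (-0.67, and -0.35 with library totals alone), as were cyp-43A1 (-0.94), cyp-37A1 (-0.69) and cyp-44A1 (-0.49). With that scaling cyp-37A1 was -0.37, cyp-43A1 was -0.62, and cyp-44A1 was not called (-0.16, edgeR adjusted p = 0.253).

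In starved rsks-1 larvae, 19 members were higher than in starved N2, 3 were lower and 47 were not called. Over the genome, 15.1% of the 14073 genes tested were called higher and 11.9% lower. Muscle markers gave 5 higher and 0 lower of 6 and pharynx 0 higher and 4 lower of 4. Neurons gave 3 higher and 0 lower of 8 and intestine 4 higher and 2 lower of 8. Hypodermis gave 0 higher and 0 lower of 4 tested. The higher count fell to 12 without starved N2 replicate 1 and to 10 without starved rsks-1 replicate 2, and the lower count to 1 without the latter. cyp-14A5 stood at 54.9 ± 3.96 CPM against 30.1 ± 2.96 CPM (log2 difference 0.87, SE 0.072, edgeR adjusted p = 5.71e-21), and cyp-34A9 at 50.8 ± 1.13 CPM against 32.1 ± 0.596 CPM (log2 difference 0.66, SE 0.061, edgeR adjusted p = 6.85e-18). cyp-25A1 was 1.66 higher, cyp-37B1 0.37 higher, and cyp-13A2 was lower (-1.06). Among the cyp-35A genes cyp-35A2 alone was called (0.17), and neither with library totals alone (0.14) nor without starved N2 replicate 1 (0.11) or starved rsks-1 replicate 2 or 3 (0.16 and 0.17).

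Fed rsks-1 larvae had 22 members higher and 6 lower than fed N2, and 24 higher and 3 lower with library totals alone. Over the genome, 17.4% of the 14073 genes tested were called higher and 22.6% lower. Neuron markers gave 6 higher and 0 lower of 8 and pharynx 0 higher and 4 lower of 4. Muscle gave 0 higher and 6 lower of 6 and intestine 1 higher and 6 lower of 8. Hypodermis gave 2 higher and 0 lower of 4 tested. cyp-37B1 had 59 counts in fed rsks-1 against 2 in fed N2, a ratio of 20.99 (95% interval 5.56 to 177). cyp-34A7 had 12 counts against 1, a ratio of 8.54 (95% interval 1.26 to 365), and its call was lost without fed N2 replicate 1 or 3 or fed rsks-1 replicate 1 or 3. cyp-13B1 was higher, with 38.8, 43.6 and 41.4 CPM against 6.62, 5.26 and 6.83 CPM in fed N2 (log2 difference 2.73, SE 0.12, edgeR adjusted p = 1.03e-42), as was cyp-13A5, at 8.77 ± 1.23 CPM against 1.88 ± 0.224 CPM (log2 difference 2.21, SE 0.20, edgeR adjusted p = 3.92e-19). Among the cyp-35A genes, cyp-35A5 (-0.67) and cyp-35A2 (-0.43) were lower and cyp-35A3 (0.32) was higher. cyp-35A4 was called higher (0.45) but not without fed N2 replicate 1 or 3 (0.32 and 0.32) or fed rsks-1 replicate 3 (0.38). cyp-29A3 was higher (0.69) but not without fed N2 replicate 1 (0.46).

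**Figure D5:**
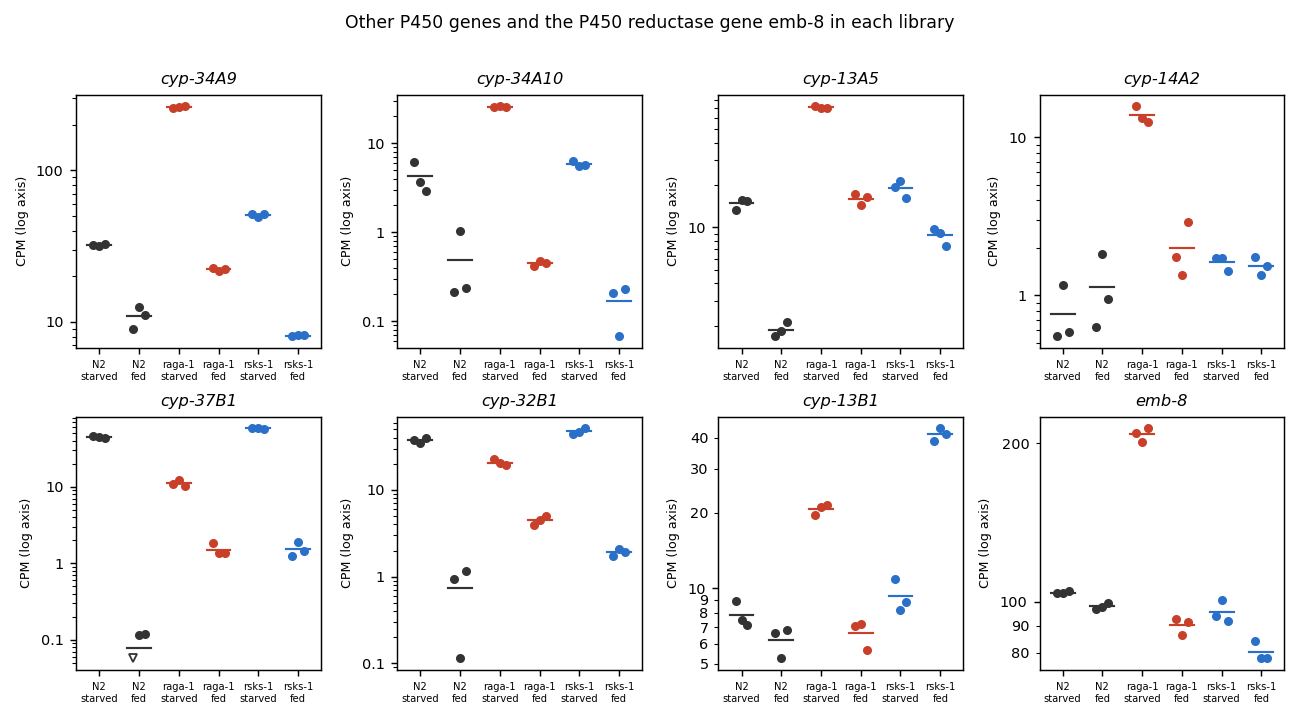
CPM of 7 P450 genes outside family 35 and of emb-8 in each library (points; log axis) for the 6 groups, with the group mean as a bar and an open triangle for a library at 0. cyp-37B1 and cyp-32B1 are high in starved and low in fed libraries, cyp-34A9 is highest in starved raga-1, and cyp-13B1 is highest in fed rsks-1.

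The multi-gene subfamilies varied among themselves in raga-1 and rsks-1. In 13A, 10 of 11 members fell on feeding in raga-1 (median -2.15) and 8 in rsks-1 (median -1.03), with cyp-13A2 rising in both. The summed 13A level went from 174 ± 5.18 to 52.7 ± 0.477 CPM in raga-1. In 33C, 9 of 11 fell in raga-1 (median -0.95) and 9 in rsks-1 (median -1.04), and none rose in either. cyp-33C8 fell in N2 and rsks-1 (-0.72 and -0.62) and was not called in raga-1, at 35.6 ± 2.74 CPM starved and 39.5 ± 2.65 CPM fed. It was called higher there without starved raga-1 replicate 1 (0.21) and without fed raga-1 replicate 2 (0.21). The same call came with relative log expression factors (0.17), no filter (0.17) and only the libraries compared (0.20). In 14A, feeding lowered 4 of 5 members in raga-1 (median -2.23), 2 in rsks-1 and 1 in N2. cyp-14A5 was the most abundant 14A transcript per kilobase in all 6 groups. It stood at 37.2 CPM per kb in starved rsks-1 and 20.4 CPM per kb in starved N2. In 33E, all 3 members fell in raga-1 and in rsks-1, whereas cyp-33E1 alone was called in N2 (cyp-33E2 also with library totals alone, -0.48), falling from 33.1 ± 1.79 CPM to 10.4 ± 0.982 CPM (log2 difference -1.67, SE 0.11, edgeR adjusted p = 3.35e-29). cyp-33E2, an eicosanoid-producing enzyme, fell from 30.04 ± 2.51 CPM to 14.3 ± 1.13 CPM in raga-1 (log2 difference -1.07, SE 0.10, edgeR adjusted p = 2.77e-19). In 25A, 3 of 4 tested members fell in raga-1 and in rsks-1, and cyp-25A4 was not called in either.

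Single members of small subfamilies gave mixed results on feeding. cyp-33A1 was called in rsks-1, where it went from 13.7 ± 1.59 CPM to 17.3 ± 1.05 CPM (log2 difference 0.34, SE 0.11, edgeR adjusted p = 0.00364). That call was lost with library totals alone (0.14, edgeR adjusted p = 0.234). cyp-33B1 stayed at or under 1.06 CPM in every group mean and fell in rsks-1 (-1.21), a call lost without starved rsks-1 replicate 1 or 2 or fed replicate 1 or 2 (-1.06 to -1.26). cyp-33D3 fell in all 3 genotypes, in raga-1 from 4.97 ± 0.941 CPM to 0.800 ± 0.258 CPM (log2 difference -2.61, SE 0.31, edgeR adjusted p = 4.46e-13), and cyp-33D1 was called in none of the 3. cyp-33D1 was called in N2 with library totals alone (-0.99), without starved N2 replicate 2 (-0.89) and without fed N2 replicate 3 (-1.14), and in rsks-1 without fed rsks-1 replicate 2 (0.77). The cyp-33D3 call in rsks-1 was lost without starved rsks-1 replicate 3 (-1.12) or fed rsks-1 replicate 2 (-1.07). cyp-42A1 went from 9.27 ± 0.765 CPM to 4.89 ± 1.67 CPM in N2 (log2 difference -0.94, SE 0.18, edgeR adjusted p = 1.17e-06) and was not called in rsks-1 (0.091). cyp-43A1 went from 8.52 ± 0.556 CPM to 6.42 ± 0.831 CPM in raga-1 (log2 difference -0.42, SE 0.13, edgeR adjusted p = 0.00478) and was not called in N2 or rsks-1.

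Neighbouring genes differed in direction in places, and the examples here were chosen after their values were seen. In the 7-gene cyp-13A run, cyp-13A2 rose on feeding in all 3 genotypes whereas cyp-13A5 fell in all 3. Next to cyp-35A5, which rose by 6.40 in N2, cyp-35B1 fell by 2.04 on the log2 scale. cyp-33C12, next to cyp-32B1, was not called in N2, at 1.02 ± 0.0863 CPM starved and 1.22 ± 0.686 CPM fed, so it gave no direction there. On feeding of raga-1 both genes were called lower. The cyp-33C12 call was lost without starved raga-1 replicate 3 (-0.72).

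Some members stayed low or level. cyp-23A1, cyp-31A2, cyp-31A3 and cyp-33C11 were called in none of the 9 comparisons, each at group means of 0.37 to 1.43 CPM, although cyp-23A1 and cyp-33C11 were called in fed raga-1 with library totals alone (1.18 and 1.13). cyp-31A2 and cyp-31A3 act with emb-8 in making the eggshell. The 5 members with too few reads to test, cyp-13B2, cyp-25A6, cyp-29A4, cyp-31A5 and cyp-35B3, did not exceed 1.03 CPM in any group mean, and no member had 0 counts in all 18 libraries. cyp-29A2 was expressed at 29.9 ± 0.295 CPM in starved and 23.3 ± 1.58 CPM in fed N2, and its fall was small (log2 difference -0.36, SE 0.087, edgeR adjusted p = 0.000116).

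The genes that serve or regulate P450 enzymes moved in several directions. emb-8, the reductase, had 104.1 ± 0.442 CPM in starved and 98.1 ± 1.41 CPM in fed N2 (log2 difference -0.087, SE 0.047, edgeR adjusted p = 0.0885). It was higher in starved raga-1, at 209, 201 and 214 CPM (log2 difference 1.00, SE 0.042, edgeR adjusted p = 6.87e-46). cytb-5.2, a cytochrome b5, fell on feeding in N2 from 528 ± 9.79 CPM to 146 ± 3.06 CPM (log2 difference -1.85, SE 0.035, edgeR adjusted p = 2.82e-85), and cytb-5.1 rose from 108 ± 3.70 CPM to 161 ± 11.6 CPM (log2 difference 0.58, SE 0.046, edgeR adjusted p = 1.69e-22). daf-9, a P450 of dafachronic acid synthesis whose name lies outside the rule, was called in none of the 9 comparisons and stood at 3.29 ± 0.580 CPM in starved N2.

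On feeding of N2, 25 nuclear receptors and other regulators of detoxification or lipid genes gave 6 higher and 13 lower. Their largest changes were those of nhr-114 (1.95), nhr-23 (1.95), nhr-86 (1.05) and mdt-15 (-1.02), the last a Mediator subunit that works with such receptors. The 8 dafachronic acid pathway genes gave 2 higher and 3 lower, among them ncr-2 (-3.65) and ncr-1 (-1.24), which act in intracellular cholesterol transport, daf-36 (3.39), the oxygenase of the first step, and dhs-16 (1.59). The 8 tested genes of heme uptake and transport gave 3 higher and 4 lower, with hrg-7 (2.63), hrg-4 (2.30) and hrg-6 (1.63) higher and hrg-2 (-2.27) lower. All 5 flavin-containing monooxygenases, the other main oxygenases of foreign compounds, fell, led by fmo-2 at -9.19 and fmo-4 at -4.02.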

How the data were processed

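RNA-seq was done on whole-body RNA of 18 L1 samples in 6 groups of 3. Reads were aligned with STAR in 2 passes, per the labels' protocols, to a genome they name WBcel269, and the submitters' processing notes also name RSEM and DESeq2, with no versions. The deposited gene and isoform tables hold expected counts, as the authors made them, per gene or transcript, and 0.962% of gene values were not whole. Counts were rounded and tested with the quasi-likelihood test of edgeR 4.0.16 on TMM factors, in 1 model of 6 group means with 12 residual degrees of freedom, after filterByExpr at a minimum count of 10, and p-values were Benjamini-Hochberg adjusted over 14073 genes. Whether counting used strand was not given in the sources used here, and exons of 24 members overlap another gene's in WBcel235. Names, neighbours, exon overlaps and the coding lengths behind the per-kilobase levels came from WBcel235. Its coordinates were used for these, and none is given here. No sequences were used here. A group at 0 counts was set to a floor of 3 counts in total, groups of 1 to 3 counts were compared by a ratio with a 95% exact binomial interval, and both cover counting error only. The genes named were drawn, per comparison, from up to 8 called genes each way whose mean reached 5 CPM on 1 side. To these were added all tested members of 35A, 34A, 37B and 13B, other small subfamilies by their members, and the largest 4 per pathway list. Not every gene that this rule covers is given for each comparison, and some genes outside it are named. The members, lists and comparisons were chosen with earlier results of these data known. The procedure was tested on simulated counts. Alternatives were library totals alone, relative log expression factors, no filter, only the libraries compared, the Wald test of DESeq2 1.42.0, summed isoform counts, a replicate block and leaving out each library.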

Additional observations from a re-analysis of the deposited data

Results flagged for a closer look

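Members whose feeding response differed from that of N2 by the interaction test (edgeR, Benjamini-Hochberg adjusted over 14073 genes) are listed here, restricted to those the naming rule covers. For raga-1 there were 21. More negative log2 responses in raga-1 were found for cyp-35A5 (-6.83), cyp-35A4 (-6.13), cyp-35A3 (-5.45), cyp-35C1 (-4.90), cyp-35A1 (-4.40), cyp-14A2 (-3.31), cyp-34A10 (-2.75), cyp-35A2 (-2.35), cyp-34A9 (-1.99), cyp-34A2 (-1.79), cyp-13B1 (-1.33) and cyp-34A1 (-1.22). More positive responses were found for cyp-37B1 (6.17), cyp-32B1 (3.43), cyp-33E1 (1.01), cyp-33C4 (0.92), cyp-33C3 (0.92), cyp-32A1 (0.92), cyp-33C8 (0.88), cyp-13A5 (0.83) and cyp-34A8 (0.51).

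For rsks-1 there were 18. More negative responses in rsks-1 were found for cyp-34A10 (-2.04), cyp-34A6 (-1.31), cyp-34A9 (-1.08), cyp-14A5 (-0.88), cyp-33E2 (-0.71), cyp-36A1 (-0.61), cyp-35A2 (-0.60), cyp-44A1 (-0.53) and cyp-37A1 (-0.51). More positive responses were found for cyp-37B1 (3.85), cyp-34A7 (3.47), cyp-13B1 (2.48), cyp-13A5 (1.86), cyp-13A6 (1.40), cyp-42A1 (1.03), cyp-32B1 (1.02), cyp-13A2 (0.76) and cyp-33C3 (0.64). The sizes for cyp-37B1, cyp-35A1 and cyp-34A7 rest on a group with 1 or 2 counts. Without fed N2 replicate 2 the cyp-34A7 difference was 5.82. Several of these calls were lost when 1 library was left out. For raga-1 these were cyp-34A1, cyp-34A2, cyp-34A8 and cyp-34A10, with the libraries named above. For rsks-1 these were cyp-34A10 and cyp-32B1, also named above, cyp-37A1 without fed rsks-1 replicate 3 (-0.38) and cyp-34A7 without the same library (3.10). The calls of cyp-44A1 and cyp-36A1 were also lost with library totals alone (-0.42 and -0.51). The call of cyp-44A1 was lost without replicate 1 of starved or fed N2 (-0.46 and -0.49). That of cyp-36A1 was lost without starved N2 replicate 3, fed N2 replicate 1 or starved rsks-1 replicate 2 (-0.54, -0.50 and -0.47). That of cyp-34A6 was lost without starved N2 replicate 2, fed N2 replicate 3, starved rsks-1 replicate 3 or fed rsks-1 replicate 2 or 3 (-1.32 to -1.09). That of cyp-33C3 was lost without 7 of the 12 libraries in turn (0.43 to 0.65).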

How the results depend on the processing

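Of 361 calls of a member in a comparison, 283 were called in each setting in which the gene was tested. In at least 1 setting 78 were not called, and 0 changed sign. A call whose gene was filtered out of a setting was not counted as lost there. With library totals alone, the members lower in starved raga-1 went from 11 to 7 and those lower in fed rsks-1 from 6 to 3. Under that scaling the all-gene median went from -0.07 to -0.37 on feeding of N2 and from 0.01 to 0.33 in fed raga-1. The share of all calls that were higher went from 43.1% to 61.7% for the raga-1 response, 40.5% to 62% for the rsks-1 response, 51.2% to 67.5% in starved raga-1 and 45.7% to 71.2% in fed raga-1. The raga-1 difference in feeding response had 16 members higher and 19 lower, and 18 higher and 15 lower with library totals alone. Leaving out 1 library gave 10 to 15 members higher and 1 to 3 lower in starved rsks-1, against 19 and 3. Same-numbered libraries did not deviate together (correlations from -0.046 to 0.033 over 45 pairs, and the best match having the same number in 16 of them), so the numbers were taken only as names. With the replicate block, feeding in N2 kept 49 of 49 called members. The calls lost under the block were cyp-13A8 in the raga-1 response, cyp-25A4 in the rsks-1 response, cyp-32A1 and cyp-37A1 in starved rsks-1, and cyp-13A8 in fed rsks-1. DESeq2 left 346 of 361 calls past the threshold, no filter 348, relative log expression factors 360 and summed isoform counts 361. The replicate block left 356, library totals alone 339 and only the libraries compared 341. In the last, 5 fell short of the threshold and the others were filtered out. Members with few counts limit the comparisons: a ratio on 1 to 3 counts has a wide interval, and differences there were read as such.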
